A study of Mus musculus with 16 samples.

Results

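Cerebellar granule neuron markers were followed through cerebellum and hippocampus of mice carrying mutant Twinkle and of wild-type mice. The 8 markers were Zic1, Zic2, Zic4, Neurod1, Pax6, Cbln1, Cbln3 and Fat2, of 18168 genes measured. They were read from the 18 probe sets, of 44904 analysed, whose only gene symbol in the platform annotation was one of these names, and none of the 18 was lost to an empty value. The study used 16 arrays of total RNA, 4 for each genotype in each region. Mutants are labelled mutant Twinkle overexpressor, and the controls wild type. Twinkle is the helicase of mitochondrial DNA, and the series was designed as a model of progressive external ophthalmoplegia. Not given in the sources used here are the promoter behind the transgene and the kinship of the wild types to the mutants. Replicates 1 to 4 of the wild types are labelled as 26, 24, 21 and 23 months of age and those of the mutants as 24, 24, 21 and 21 months, in either region. All 8 hippocampus samples carry a description that speaks of cerebellum, whereas their title, source and tissue name hippocampus, and these were followed. Which cerebellum and hippocampus came from the same animal is not labelled, and the p-values below reflect the spread among these samples alone.

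Granule neurons are the small excitatory neurons of the cerebellar cortex. Their axons, the parallel fibres, make synapses on Purkinje cells, the output neurons of that cortex. The zinc-finger factors Zic1, Zic2 and Zic4 and the factors Neurod1 and Pax6 act in the formation of granule neurons. Cbln1 is secreted by granule neurons and binds neurexins on parallel fibres. Cbln3 is its partner subunit, and Fat2 is a large cadherin of parallel fibres. Some of these genes are also used outside the cerebellum, in the forebrain. Neurod1 and Pax6, for example, act in the dentate gyrus of the hippocampus, where neurons are still born in adults.

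The values are on a log scale, taken as log2, and 0 stands for the median of the 8 arrays of a region. No expression level is left in them, so the regions cannot be compared for level and the labelled tissues cannot be checked against the presence of their markers. The spread over arrays is measurable. The number of arrays limits the precision.

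Zic1 and Zic4 are next to each other in the RefSeq gene table, with starts 3204 bases apart on opposite strands. Their upstream sequences, and that of Cbln3, are shown because Cbln3 had the widest range of the 8 markers in the hippocampus, and the neighbours Zic1 and Zic4 a wide and the narrowest one. Each run holds the 250 bases before the gene start, 5′ to 3′ on the strand of the gene, from RefSeq on build GRCm38.p6. Capitals mark the E-box core CANNTG, the motif of helix-loop-helix factors such as Neurod1, which reads the same on both strands.
Zic1, chr9:91365769-91366018, minus strand: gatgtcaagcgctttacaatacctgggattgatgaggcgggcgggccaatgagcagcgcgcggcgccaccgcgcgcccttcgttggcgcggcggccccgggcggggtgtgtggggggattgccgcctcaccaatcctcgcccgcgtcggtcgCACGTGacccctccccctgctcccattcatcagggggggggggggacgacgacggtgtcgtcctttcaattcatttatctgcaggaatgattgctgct
Zic4, chr9:91368722-91368971, plus strand: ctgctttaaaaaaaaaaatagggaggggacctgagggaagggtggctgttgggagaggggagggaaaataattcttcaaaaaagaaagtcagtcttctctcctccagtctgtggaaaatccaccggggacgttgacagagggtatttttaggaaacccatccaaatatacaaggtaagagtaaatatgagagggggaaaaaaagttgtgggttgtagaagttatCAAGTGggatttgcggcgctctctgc
Cbln3, chr14:55884257-55884506, minus strand: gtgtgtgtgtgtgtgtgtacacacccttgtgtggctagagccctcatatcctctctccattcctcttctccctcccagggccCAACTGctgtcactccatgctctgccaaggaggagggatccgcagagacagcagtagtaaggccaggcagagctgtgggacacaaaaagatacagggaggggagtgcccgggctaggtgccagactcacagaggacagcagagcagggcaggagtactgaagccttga

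The 3 sequences differ in base composition, with 66% G and C for Zic1, 57.6% for Cbln3 and 44.4% for Zic4. Windows were found for 6 of the 8 markers, Cbln1 and Zic2 having no entry, and Pax6 had a pair of them. The core CANNTG was in 6 of these 7 windows and in 66.2% of 32851 windows of all genes. Its forms CAGATG and CAGCTG, and the ZIC motif CAGCAGG, each searched on both strands, were in 0 of the 7 windows. They were in 14.4%, 13% and 8.44% of all windows. A match or its absence describes these letters only.

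In the cerebellum, the tissue of these neurons, the markers stood at nearly the same value in both genotypes. The mean over the 8 markers was 0.02 ± 0.06 in wild types and -0.01 ± 0.06 in mutants (SD, n = 4), a difference of -0.03, always mutant minus wild type. Across the 8 arrays it ran from -0.08, on mutant replicate 2, to 0.10, on wild-type replicate 3. None of the 8 markers passed in limma at an adjusted p under 0.05, as for 0% of all genes, and none had an unadjusted p under 0.05, as 5.39% of genes did. The genotypes overlapped for every marker, while 2.46% of genes did not overlap. The median difference of the markers was -0.03 with 3 of 8 above 0, against 0.01 over all genes with 53.6% above 0. In bulk RNA, fewer granule neurons and less of these RNAs per neuron cannot be told apart.

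Zic1, in replicate order, stood at -0.08, 0.03, 0.20 and -0.01 in wild-type cerebellum and at -0.02, -0.15, 0.05 and 0.14 in mutant cerebellum. Zic4 stood at 0.03, -0.05, 0.09 and -0.05 in wild types and at 0.00, -0.10, -0.09 and 0.08 in mutants. Both genes had wild-type replicate 3 as the highest wild type and mutant replicate 4 as the highest mutant. Zic2, read from 1 probe set, stood at -0.08, -0.13, 0.57 and -0.18 in wild types and at 0.10, 0.08, 0.15 and -0.47 in mutants. Wild-type replicate 3 was thus far above the other wild types for Zic2, and mutant replicate 4 far below the other mutants. The SD of Zic2 over the 8 arrays, 0.30, was larger than that of 99.1% of genes.

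Neurod1, the helix-loop-helix factor of granule neuron differentiation, stood at -0.10, 0.07, 0.01 and -0.11 in wild types and at 0.02, -0.07, 0.08 and 0.06 in mutants. Pax6, a paired-box factor of granule precursors, stood at 0.06, -0.08, -0.13 and -0.12 in wild types and at 0.07, 0.04, -0.01 and -0.02 in mutants. For Pax6, wild-type replicate 1 lay within the mutants and the other 3 wild types below every mutant. Its difference of 0.09 (SE 0.09, limma adjusted p = 0.936) had the smallest p of the 8 markers here. The 5 Pax6 probe sets were not alike. Wild-type replicates 3 and 4 stood at -0.43 and -0.20 on 1452526_a_at and at -0.30 and -0.29 on 1425960_s_at, but at 0.10 and -0.01 on 1456342_at.

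Cbln1 was among the steadiest genes of the cerebellum. It stood at -0.02, -0.09, 0.06 and 0.04 in wild types and at -0.01, -0.06, 0.03 and 0.05 in mutants. Its SD over the 8 arrays was 0.05, and only 6.74% of genes had a smaller one. Cbln3, its partner subunit, stood at -0.00, 0.08, 0.11 and -0.05 in wild types and at 0.03, -0.19, -0.01 and -0.14 in mutants. Mutant replicates 2 and 4 were the lowest of the 8 arrays for Cbln3, and mutant replicate 1 lay within the wild types. The cadherin Fat2, read from 1 probe set, stood at -0.14, 0.30, -0.08 and 0.35 in wild types and at 0.03, -0.22, 0.24 and -0.03 in mutants. Both genotypes held high and low arrays for Fat2, whose SD of 0.22 exceeded that of 96.2% of genes.

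**Figure D1:**
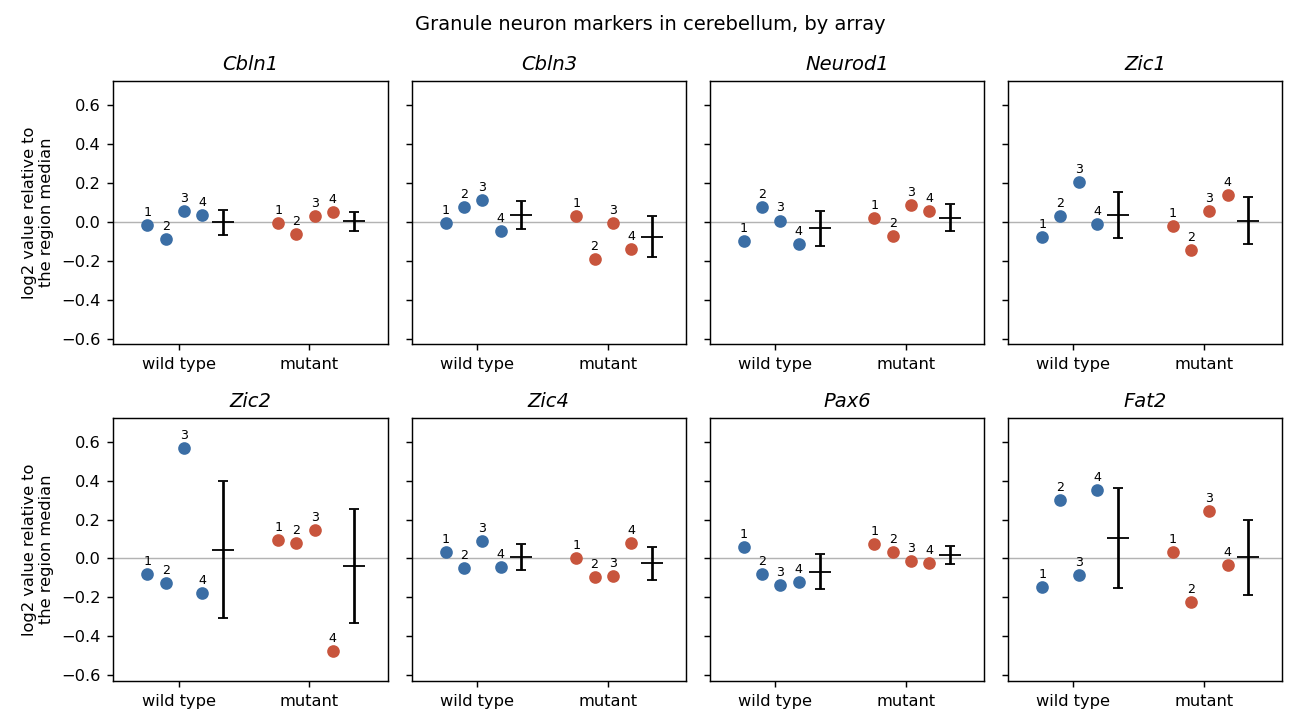
Log2 value of each marker relative to the region median (vertical axis, the same in all panels) on the 8 cerebellum arrays, with wild types in blue and mutants in red and the replicate number over each point; the bar is the mean ± SD (n = 4). The genotypes overlap in all 8 panels, and the widest points are Zic2 on wild-type replicate 3, at 0.57, and on mutant replicate 4, at -0.47.

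The precision of the cerebellar differences depended on which arrays set the spread. The fit over 16 arrays shares 1 variance per gene between the regions, and several markers varied far more in the hippocampus. For Cbln3 the SE of the cerebellar difference of -0.11 was 0.81 in that fit and 0.07 with the 8 cerebellum arrays alone, and for Cbln1 it was 0.66 against 0.06. The SE of Zic1 was 0.59 against 0.08, and that of Pax6 0.09 against 0.06. With the cerebellum arrays alone the 95% interval of the difference ran from -0.12 to 0.13 for Cbln1, from -0.20 to 0.14 for Zic1 and from -0.17 to 0.10 for Zic4. It ran from -0.26 to 0.04 for Cbln3, from -0.08 to 0.19 for Neurod1 and from -0.05 to 0.22 for Pax6. The intervals were wider for Fat2, from -0.38 to 0.17, and Zic2, from -0.46 to 0.29. In this fit too no marker passed, with limma adjusted p from 0.894 for Cbln3 and Pax6 to 0.989 for Cbln1. The smallest unadjusted p of the 8 was 0.124, for Cbln3.

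The markers did not move as a block over the cerebellum arrays. Pairwise Pearson correlations over the 8 arrays ran from -0.63, for Zic1 with Pax6, to 0.65, for Cbln1 with Zic1, with a median of 0.05 over 28 pairs. The genes outside the list most like the mean of the markers, among 2317 that spanned at least 0.5, were Scamp5 (r = 0.988), Sptb (r = 0.984), Cbx6 (r = 0.973), Mpp2 (r = 0.972), Ccnk (r = 0.966) and Sf1 (r = 0.966). Like the marker mean, these 6 genes were highest on wild-type replicate 3, where Mpp2 stood at 0.51, and lowest on mutant replicate 2, where Sptb stood at -0.39. Points of one array share its RNA and labelling, and wild-type replicate 3 had the widest spread of the cerebellum arrays, with an SD of 0.185 over all probe sets against 0.114 to 0.16 on the others.

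Other genes of cerebellar neurons did not pass in the cerebellum either, though most in the granule and Purkinje lists lay below 0. Of 22 further granule neuron and lineage genes 19 were measured and none passed in either direction. Their median difference was -0.07, with 16 of 19 below 0, whereas 53.6% of all genes were above 0. The smallest p belonged to Slc17a7, a vesicular glutamate transporter of granule and of hippocampal neurons, at -0.30 (SE 0.14), to the nuclear factor Nfia at -0.14 (SE 0.07) and to the adhesion molecule Cntn2 at -0.16 (SE 0.09), each with a limma adjusted p of 0.884. The 19 genes averaged 0.19 on wild-type replicate 3 and -0.08 on mutant replicate 2, the arrays at the ends for the markers as well. Of the cerebellin family and its synaptic partners 5 of 7 genes were measured and none passed. Cbln2, which is expressed mainly outside granule neurons, stood at 0.26 (SE 0.12, limma adjusted p = 0.884). For 13 measured Purkinje cell genes the median difference was -0.03, with 10 below 0, and none passed.

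In the hippocampus the markers as a group were spread over a much wider range, and most of it came from 1 array. Zic2 was an exception, with a range of 1.12 against 1.04 in the cerebellum. The mean over the markers was 1.96 on wild-type replicate 1 and between -0.28 and -0.09 on the other wild types. Among mutants it was 0.59 on replicate 1, 0.10 on replicate 3 and between -0.19 and -0.05 on replicates 2 and 4. On wild-type replicate 1 all 8 markers were above 0 and 6 were above 0.5, as were 2.91% of all genes. On mutant replicate 1 the count above 0.5 was 3 of 8, against 0.809% of genes, and on mutant replicate 3 it was 1 of 8, against 0.193%. It was 0 of 8 on the other 5 hippocampus arrays. Wild-type replicate 1 is labelled as 26 months, the highest age of the series. So is wild-type replicate 1 of the cerebellum, where the marker mean was -0.04.

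Among all 18168 genes, Cbln3 had the SD of rank 3 over the 8 hippocampus arrays, Cbln1 that of rank 5 and Zic1 that of rank 7, from the largest. In wild-type hippocampus it stood at 4.97, -0.15, -0.09 and -0.10 and in mutants at 1.75, -0.01, 0.36 and -0.15. On wild-type replicate 1 Cbln3 was the gene of rank 2 among 18168, on mutant replicate 1 it had rank 11 and on mutant replicate 3 rank 101. Both of its probe sets put wild-type replicate 1 first and mutant replicate 1 next, but only 1 of them was high on mutant replicate 3, with 5.98, 2.86 and 0.74 on these 3 arrays for 1455445_at and 3.95, 0.65 and -0.01 for 1422911_at. The 5 other arrays lay together, between -0.15 and -0.01 for the gene.

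Fat2 stood at 1.23, -0.28, -0.00 and -0.07 in wild types and at 0.37, 0.01, 0.00 and -0.05 in mutants. The same arrays, replicate 1 of each genotype, were thus the highest for the cadherin as for Cbln3, and mutant replicate 3 was level with the rest. Neurod1 stood at 1.34, 0.04, 0.05 and -0.07 in wild types and at 0.01, -0.18, 0.06 and -0.25 in mutants. Only wild-type replicate 1 stood out for Neurod1, and both of its probe sets showed it, at 1.39 and 1.29. Pax6 stood at 0.46, -0.08, 0.04 and 0.00 in wild types and at -0.01, 0.00, -0.06 and -0.14 in mutants. Its highest array was again wild-type replicate 1, but by probe set the value there was 1.08, 0.71, 0.49, 0.12 and -0.09, so that 1437816_at and 1456342_at hardly took part.

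The ZIC genes were unlike each other. Zic1 stood at 3.04, -0.31, -0.66 and -0.78 in wild types and at 1.00, -0.49, 0.77 and 0.31 in mutants. Zic1 had rank 7 of 18168 genes on wild-type replicate 1, 45 on mutant replicate 1 and 16 on mutant replicate 3. Zic2 stood at 0.98, -0.06, -0.13 and -0.07 in wild types and at 0.25, 0.02, 0.03 and -0.02 in mutants. Zic4, the neighbour of Zic1 on the chromosome, stood at 0.23, -0.03, -0.07 and -0.19 in wild types and at 0.25, -0.03, -0.05 and -0.16 in mutants. Zic4 was thus highest on replicate 1 of each genotype, as Zic1 was, but its whole range was 0.44, against 3.82 for Zic1. For Zic1 mutant replicates 3 and 4 also lay well above wild-type replicates 2, 3 and 4, and for Zic2 they lay above these by a small margin.

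**Figure D2:**
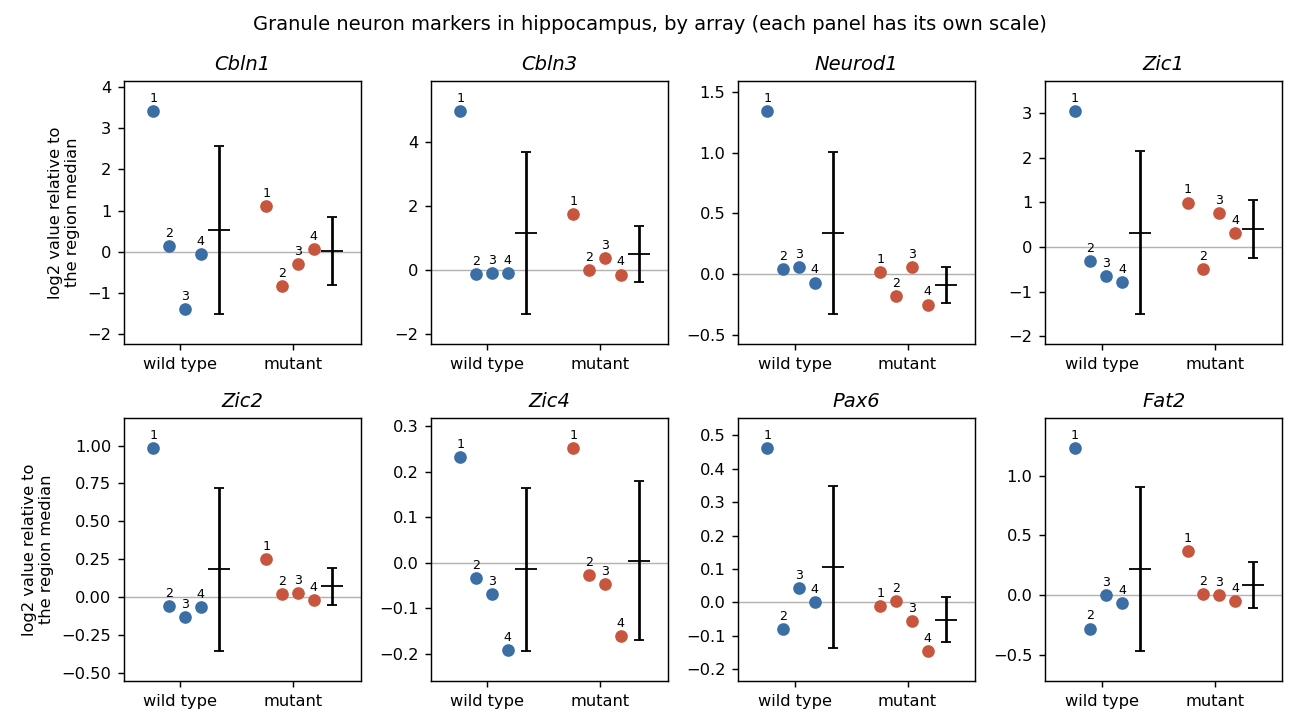
Log2 value of each marker relative to the region median on the 8 hippocampus arrays (vertical axis, with its own scale in each panel), with wild types in blue and mutants in red and the replicate number over each point; the bar is the mean ± SD (n = 4). Wild-type replicate 1 is the highest point in 7 panels, reaching 4.97 for Cbln3, and in the Zic4 panel it lies at 0.23 beside mutant replicate 1 at 0.25.

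Cbln1 had a second source of spread. It stood at 3.41, 0.15, -1.38 and -0.05 in wild types and at 1.11, -0.82, -0.28 and 0.08 in mutants. On wild-type replicate 3 it had rank 18164 of 18168 genes and on mutant replicate 2 rank 18163, so it was among the lowest genes of these arrays, while Cbln3 stood at -0.09 and -0.01 there. All 3 Cbln1 probe sets put wild-type replicate 3 lowest, at -1.36, -2.00 and -0.79. Its relative Cbln4 stood at -1.77 on wild-type replicate 3 and at -0.63 on mutant replicate 2, and Slc17a6, a vesicular glutamate transporter of thalamic and other subcortical neurons, at -0.48 and -0.60. Calb2, the calcium-binding protein calretinin, was at -1.61 on wild-type replicate 3 and 0.14 on mutant replicate 2. Cbln4 and Slc17a6 are named here after their values were seen. On wild-type replicate 1, where Cbln1 was highest, Cbln4 stood at -0.69 and Slc17a6 at -0.10. The 15 genes listed for thalamus and habenula averaged between -0.10 and 0.06 on all 8 hippocampus arrays. Of them, 5 were above 0 on wild-type replicate 3 and 8 on mutant replicate 2. Their part in the values of Cbln1 was not tested.

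Over the 8 hippocampus arrays the 28 pairwise correlations of the markers ran from 0.62, for Zic4 with Pax6, to 0.99, for Cbln3 with Zic2, with a median of 0.91. All of them include wild-type replicate 1, the highest array for 7 of the 8 markers.

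**Figure D3:**
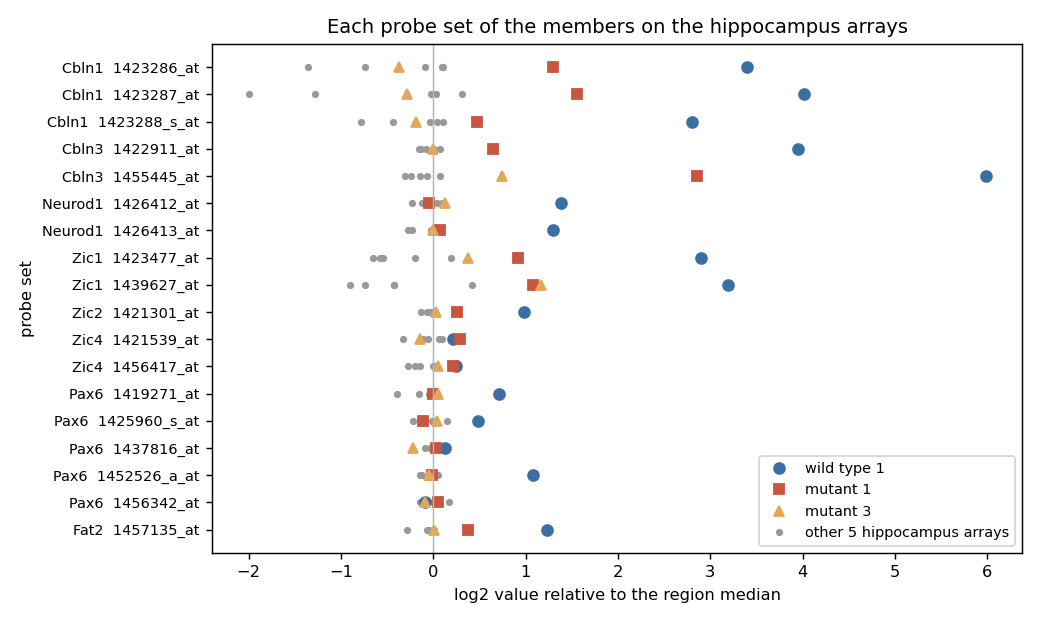
Log2 value relative to the region median (horizontal axis) of each of the 18 probe sets on the 8 hippocampus arrays, with wild-type replicate 1 as blue circles, mutant replicate 1 as red squares, mutant replicate 3 as orange triangles and the other 5 arrays as grey dots. The Cbln3 probe set 1455445_at reaches 5.98 on wild-type replicate 1, while 2 Pax6 probe sets and both Zic4 probe sets reach at most 0.25 there, and the grey dots of Cbln1 reach down to -2.00.

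Some other cerebellar genes were high on the same hippocampus arrays. Gabra6, a GABA receptor subunit of granule neurons that is named here after its values were seen, was the highest of all genes on wild-type replicate 1, at 6.28, and on mutant replicate 1, at 3.28. It stood at 1.38 on mutant replicate 3 and between -0.16 and 0.04 on the other 5 arrays. Of the 19 measured genes of that further granule list, 8 were above 0.5 on wild-type replicate 1, 2 on mutant replicate 1 and 1 on mutant replicate 3. Slc17a7, at -0.07, and the lineage factors Barhl1, at 0.02, and Atoh1, at 0.06, were near 0 on wild-type replicate 1; they were chosen after their values were seen.

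Genes of other cerebellar cells were, on average, also high on wild-type replicate 1. The 13 Purkinje cell genes averaged 1.21 on wild-type replicate 1, where all 13 were above 0 and 8 above 0.5. They averaged 0.27 on mutant replicate 1, with 3 above 0.5, and between -0.06 and 0.02 on the other 6 arrays. The genes most like the marker mean over the 8 hippocampus arrays, among 564 outside the list that spanned at least 1, began with 2 Purkinje cell genes. These were Car8 (r = 0.999) and Pcp2 (r = 0.991), followed by Stk17b (r = 0.990), Arhgef33 (r = 0.986), Crtam (r = 0.985) and Ctxn3 (r = 0.985). Without wild-type replicate 1 these r were 0.998 for Car8, 0.972 for Pcp2 and from 0.886 to 0.952 for the other 4. Car8 stood at 2.35, -0.00, -0.28 and -0.10 in wild types and at 0.82, -0.14, 0.22 and -0.01 in mutants, in nearly the order of the marker mean. The 7 genes listed for Bergmann glia averaged 0.44 on wild-type replicate 1, with 3 above 0.5, and at most 0.07 elsewhere. On mutant replicate 1 they averaged 0.01.

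Most genes of hippocampal CA neurons were low on wild-type replicate 1. The 12 measured averaged -0.60 there, with 7 below -0.5, a lowest value of -2.03, and 4 above 0, up to 0.36 for Neurod2. They averaged -0.14 on mutant replicate 1 and -0.10 on mutant replicate 3, with 1 of 12 below -0.5 on each, and between -0.05 and 0.25 on the other 5 arrays. Dentate granule neuron genes, 10 in all, were mixed on wild-type replicate 1, with a mean of -0.17, 2 below -0.5, 4 above 0 and C1ql2 at 1.02. Their mean was also -0.17 on mutant replicate 4. Choroid plexus genes averaged 0.81 on wild-type replicate 1 and 1.93 on mutant replicate 4, where the granule marker mean was -0.05 and Zic1 stood at 0.31. Genes of the meninges and of fibroblasts averaged 1.00 on mutant replicate 1, with 8 of 11 above 0.5, and -0.40 on wild-type replicate 1. The part of these cell types in the marker values was not tested.

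**Figure D4:**
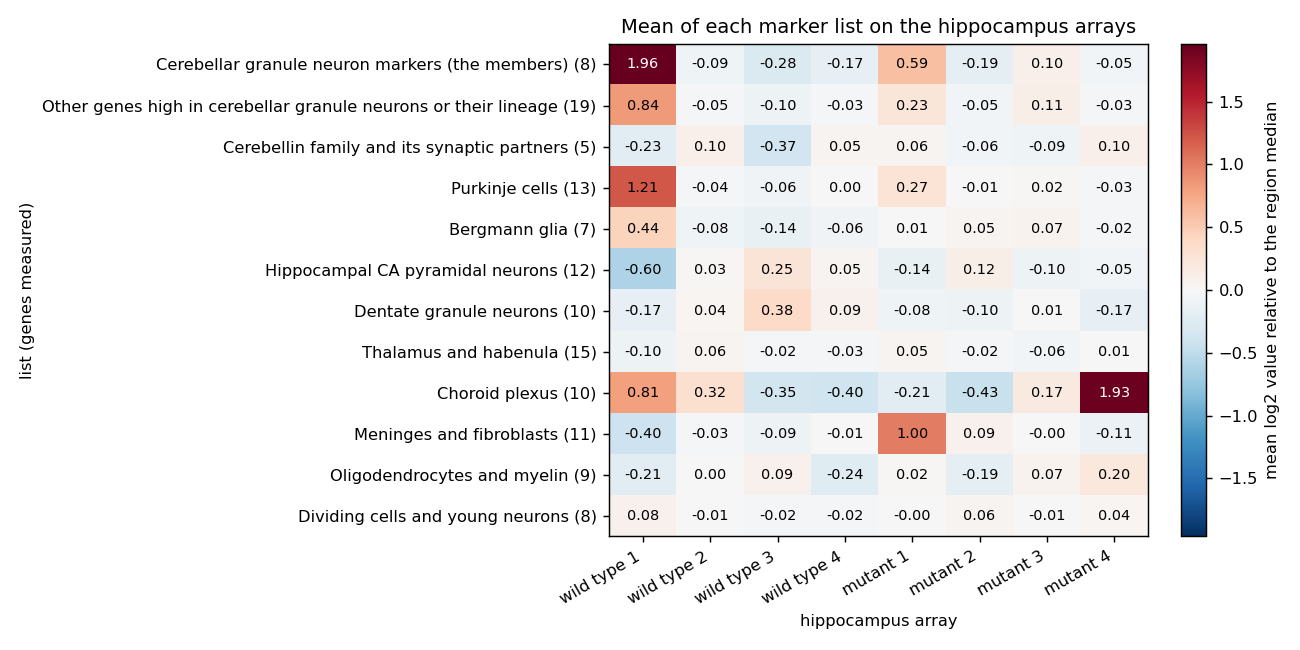
Mean log2 value relative to the region median (colour and printed number) of 12 marker lists (rows, with the number of genes measured) on the 8 hippocampus arrays (columns). Wild-type replicate 1 has the highest values for granule neurons, 1.96, and Purkinje cells, 1.21, and the lowest for CA pyramidal neurons, -0.60; the choroid plexus list is highest on mutant replicate 4, at 1.93.

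A relative sign of RNA quality was alike on wild-type replicate 1 and the other arrays, while the overall spread of that array was not. The difference between the 5′ and the 3′ probe set for actin was 0.02 on that array and between -0.05 and 0.10 on the other hippocampus arrays. The values are centred on the region median, so this difference only compares the arrays with each other. It does not show whether the RNA was intact. The SD over all probe sets was 0.261 on it and between 0.119 and 0.161 on the others.

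Against this spread the genotype differences of the markers in the hippocampus could not be resolved. The mean over the markers was 0.36 ± 1.07 in wild types and 0.12 ± 0.34 in mutants (SD, n = 4), a difference of -0.24 that was 0.29 without wild-type replicate 1. None of the 8 passed in limma, as for 0% of all genes, and none had an unadjusted p under 0.05, as 8.03% of genes did. No marker had genotypes fully apart, against 4.76% of genes. The median difference was -0.15 with 2 of 8 above 0, against 0.02 over all genes with 58.9% above 0. Neurod1 had the smallest p, at -0.43 (SE 0.21, limma adjusted p = 0.613), and stood at -0.10 without wild-type replicate 1. Pax6 was at -0.16 (SE 0.09, limma adjusted p = 0.648) and at -0.04 without that array. These SE values, and those given below for the hippocampus, come from fits that share 1 variance per gene with the cerebellum arrays. With the hippocampus arrays alone the SE was larger for each of the 8 markers. It was 0.28 for Neurod1, 0.11 for Pax6, 0.88 for Cbln1 and 1.08 for Cbln3.

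Several markers changed sign with wild-type replicate 1. Cbln3 was at -0.67 (SE 0.81, limma adjusted p = 0.851) with all arrays and at 0.60 (SE 0.29, limma adjusted p = 0.69) without it. Cbln1 was at -0.51 (SE 0.66, limma adjusted p = 0.863) and at 0.45 without it. Fat2 was at -0.14 and Zic2 at -0.11 with all arrays, and at 0.20 and 0.15 without it. Zic1 was at 0.07 (SE 0.59, limma adjusted p = 0.98) with all arrays and at 0.98 (SE 0.24, limma adjusted p = 0.299) without it, the largest of the 8 differences there. The 3 hippocampus arrays with high granule markers, wild-type replicate 1 and mutant replicates 1 and 3, were then left out. Wild-type replicates 2, 3 and 4 and mutant replicates 2 and 4 remained. Zic1 was at 0.49 and Cbln3 at 0.03 in these, the marker mean differed by 0.06 and again no marker passed. Since the arrays were chosen by the values of the markers, these differences are no separate test of them. With the hippocampus arrays alone the 95% interval ran from -3.09 to 1.75 for Cbln3 and from -0.22 to 0.26 for Zic4, the widest and the narrowest of the 8.

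No gene of the other 11 lists passed in limma in either region with all arrays. The nearest was Dcn, a matrix proteoglycan of the meninges list, at 0.63 in the hippocampus (SE 0.11, limma adjusted p = 0.0826), which passed without wild-type replicate 2 or mutant replicate 4. Without wild-type replicate 1 Dcn was at 0.59 (SE 0.12, limma adjusted p = 0.251). All 11 genes of the meninges list were above 0 in the hippocampus, with a median of 0.34, while 58.9% of all genes were above 0. The list averaged 1.00 on mutant replicate 1, between -0.11 and 0.09 on the other mutants and between -0.40 and -0.01 on the wild types. In the hippocampus the 19 further granule genes had a median difference of -0.07, with 14 below 0, which became 0.02 with 8 below 0 without wild-type replicate 1. Gabrd, a GABA receptor subunit of cerebellar and dentate granule neurons, stood at -0.22 (SE 0.06, limma adjusted p = 0.426), and the synaptic vesicle protein Svop at -0.12 (SE 0.07, limma adjusted p = 0.648). The 13 Purkinje cell genes had a median of -0.22, with 11 below 0, which became 0.07 with 4 below 0 without that array. Rgs8, a regulator of G-protein signalling, stood at -0.46 (SE 0.17, limma adjusted p = 0.513) and at -0.22 without it.

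**Figure D5:**
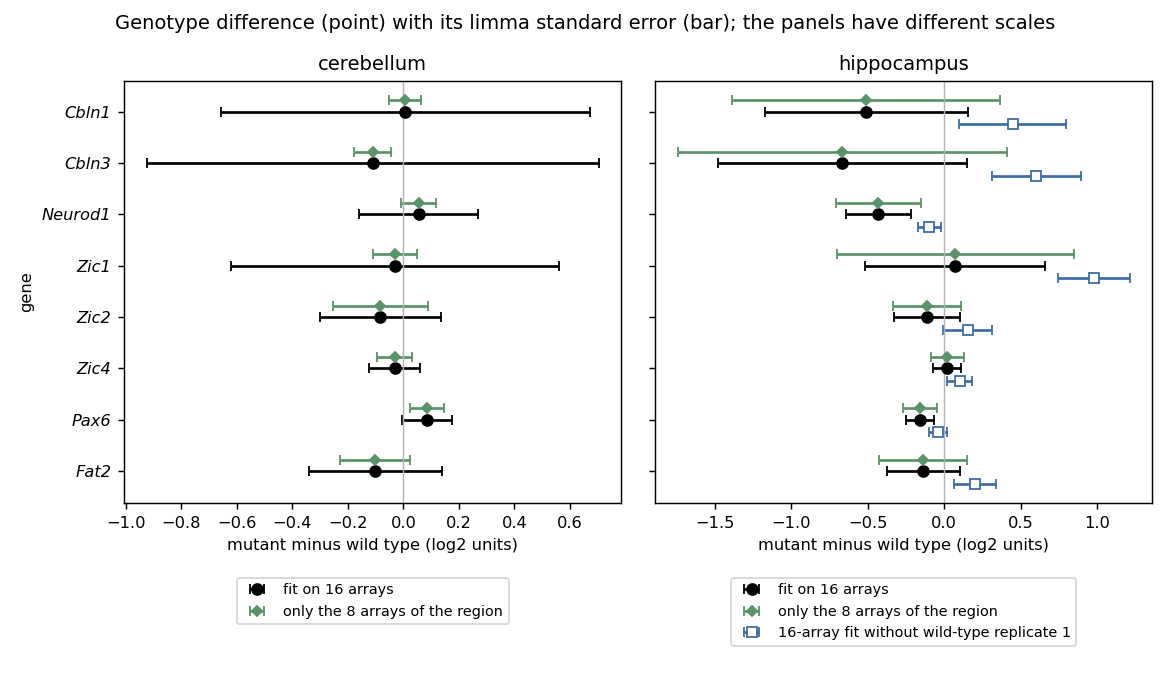
Mutant minus wild type in log2 units (horizontal axis, with its own scale in each panel) for each marker, with limma's standard error as the bar: black circles for the fit on 16 arrays, green diamonds for the 8 arrays of the region alone and, for the hippocampus, open blue squares without wild-type replicate 1. The cerebellar bar of Cbln3 shrinks from 0.81 to 0.07 when the hippocampus arrays are left out, and its hippocampal difference moves from -0.67 to 0.60 without wild-type replicate 1.

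The difference of the genotype effect between the regions, hippocampus minus cerebellum, passed for none of the 8 markers in limma, as for 0% of all genes. None had an unadjusted p under 0.05, as 5.35% of genes did. Pax6 had the smallest p, at -0.24 (SE 0.13, limma adjusted p = 0.867), and Neurod1 was at -0.49 (SE 0.30, limma adjusted p = 0.879). Without wild-type hippocampus replicate 1 these became -0.13 and -0.15. For the other 6 markers it ran from -0.56, for Cbln3, to 0.10, for Zic1, and without that array from 0.13, for Zic4, to 1.01, for Zic1, with no marker passing. No test asked whether the markers differ in level between the regions, since the centring of the values sets that outcome.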

How the data were processed

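Per the labels' protocols, Trizol was used to extract total RNA, and biotin-labelled cRNA made from it was hybridised to Affymetrix arrays. The submitters' processing notes name GCOS 4.0. Not given in the sources used here are the probe summary, normalization, centring and log base. The values deposited by the authors were taken as log2. If the base were e, each difference would have to be multiplied by 1.44. In each region 99.9% of probe sets had a median within 1e-05 of 0.

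Of 45101 probe sets, 64 controls and 133 others with an empty value were left out. Genes were named from probe sets with 1 symbol, and a gene's value was the mean over its probe sets. A linear model with 1 mean per group, 12 residual degrees of freedom and no variance trend was fitted to 18168 genes on 16 arrays (limma 3.58.1, R 4.3.3). The two-sided p-values were adjusted by Benjamini-Hochberg across the 18168 genes, and a gene was called under 0.05. The fit was tested on simulated data.

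The markers, the other lists and the naming rule (all 8 markers, up to 3 genes of smallest p per list and region, and the 6 genes most like the marker mean) were chosen with earlier results of these data known. The alternatives were quantile normalization, centring of arrays, a replicate block, age as a covariate, single probe sets, the arrays of 1 region, and leaving out arrays. Samples of the same replicate number correlated between genotypes from -0.192 to 0.231 in their deviations from group means. The highest value was that of replicate 1 in the hippocampus. Such correlations cannot show whether the number stands for a shared preparation, and the main fit used no pairing.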

Additional observations from a re-analysis of the deposited data

Results flagged for a closer look

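Of 36 groups of 4 arrays examined, for the 8 markers and their mean, 8 held an array whose gap to the next was too large for the group's range by Dixon's test at 95%. Chance gives about 1 in 20 groups when groups are separate; these share arrays and include the mean of the markers, so that rate is no yardstick for their number, and 5 of the 8 are the same array. In wild-type hippocampus replicate 1 was set apart for Cbln3, at 4.97 against -0.15 to -0.09 on the others, for Zic1, at 3.04 against -0.78 to -0.31, and for Neurod1, at 1.34 against -0.07 to 0.05. The same array was set apart for Zic2, at 0.98 against -0.13 to -0.06, and for the marker mean, at 1.96 against -0.28 to -0.09. In mutant hippocampus replicate 1 was set apart for Fat2, at 0.37 against -0.05 to 0.01. In the cerebellum Zic2 alone was involved, with wild-type replicate 3 at 0.57 against -0.18 to -0.08 and mutant replicate 4 at -0.47 against 0.08 to 0.15.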

How the results depend on the processing

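No marker passed under any alternative run, the smallest adjusted p in limma being 0.651 in the cerebellum and 0.299 in the hippocampus. Of 130 marker values under alternatives in each region, 116 in the cerebellum and 106 in the hippocampus kept their direction. Part of these could not change it. The replicate block and the fit on the arrays of 1 region leave each difference as it was, and Zic2 and Fat2 have only 1 probe set each. The count of genes called, 0 in each comparison, stayed at 0 in the cerebellum. In the hippocampus it was 2 with quantile normalization and from 0 to 7 with 1 array left out, being 7 and 3 when wild-type replicate 2 or 4 was left out and 2 and 1 when mutant replicate 4 or 1 was. The difference between regions gave 0 to 1, with 1 without hippocampus replicate 4 of either genotype. None of these genes was a marker. The replicate block changed no call. Each replicate number is present in both genotypes of a region, so the block cannot move a genotype difference, only its SE. The difference of the marker mean was therefore bound to stay at -0.03 in the cerebellum and -0.24 in the hippocampus. No pseudocount or filter on dim probe sets applies to centred values.

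Values that changed sign are as follows. With quantile normalization the hippocampus gave 0.0225 for Cbln3, 0.0148 for Zic2, 0.0547 for Fat2 and 0.0120 for the marker mean. With age as a covariate it gave 0.0726 for Cbln1, 0.0106 for Cbln3, 0.0328 for Zic2 and 0.0269 for Fat2, and the cerebellum gave -0.0151 for Cbln1. Single probe sets gave -0.0159 and -0.0508 for Cbln1 and 0.0508 for Zic1 in the cerebellum, and -0.131 for Zic1 and -0.0486 for Zic4 in the hippocampus. Without the 3 hippocampus arrays with high markers, an alternative chosen after seeing the data, values were 0.0579 for Cbln1, 0.0348 for Cbln3, 0.0849 for Zic2, 0.0951 for Fat2 and 0.0610 for the mean. Without wild-type replicate 3 and mutant replicate 2 of the cerebellum, also chosen after seeing the data, values were 0.0764 for Zic1, 0.0513 for Zic2, 0.0198 for Zic4 and 0.0270 for the mean. Leaving out single arrays gave ranges in the cerebellum of -0.0737 to 0.0255 for Zic1, -0.0225 to 0.0273 for Cbln1, -0.157 to 0.0908 for Zic2 and -0.0486 to 0.00249 for the mean. In the hippocampus they were -0.29 to 0.98 for Zic1, -0.0634 to 0.101 for Zic4, -1.15 to 0.45 for Cbln1, -1.10 to 0.60 for Cbln3, -0.22 to 0.15 for Zic2, -0.30 to 0.20 for Fat2 and -0.45 to 0.29 for the mean. The mean in the cerebellum turned without wild-type replicate 3. Each upper end in the hippocampus came without wild-type replicate 1. The cause of the other changes was not tested.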

Other observations

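Mutant replicate 2 of the cerebellum, the array of lowest marker mean, carried raised values of a few genes from outside the cerebellar cortex. Spink8, a gene of hippocampal CA neurons that is named here after its values were seen, stood at 3.24 on it and at most at 0.60 on the other cerebellum arrays. The other 11 measured CA genes did not exceed 0.5 there. Slc17a6, also named after its values were seen, stood at 0.74 on that array, against -0.59 to 0.20 on the others, while the 15 genes of its thalamus and habenula list averaged 0.08 with 1 above 0.5. The 11 genes of meninges and fibroblasts averaged 0.33, with 3 above 0.5. The highest of all genes on mutant replicate 2 was Prl, at 3.47. Prl was also the highest on mutant replicate 3 of the cerebellum, at 1.79. In the hippocampus it was the highest on wild-type replicate 4, at 4.32, and on mutant replicate 2, at 6.41.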
